A study of Bos taurus with 30 samples.

Results

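The genes described here are 3 innate immune sensors, CD14 (ENSBTAG00000015032), TLR2 (ENSBTAG00000008008) and TLR4 (ENSBTAG00000006240), measured in visceral adipose tissue of heifer calves. They were chosen by these 3 identifiers, out of 24596 genes listed. All 3 passed the filter on low values, which asked for a value above 1 in at least 15 of the 30 libraries and kept 12738 genes. The table gives Ensembl identifiers without names, so the match of symbol to identifier is that of the choice of genes and was not checked against the values.

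One RNA-seq library was made from the omental fat of each of 30 Holstein-Friesian × Angus heifers, 15 on the High (HI) and 15 on the Moderate (MOD) plane of nutrition. Blocks were formed by age, bodyweight and sire, and calves were assigned to a diet within each block. By the labels, the diets were fed from 2 to 21 weeks of age. In the 8 weeks of the calf phase, HI calves were given up to 1.5 kg of milk replacer in 10 litres daily with free access to concentrate. MOD calves were given up to 0.5 kg in 4 litres, with concentrate stepped up to at most 1 kg. Milk replacer was reduced towards weaning on both diets. In the 11 weeks after weaning, concentrate was free to HI calves and held at 1 kg for MOD calves, while hay was given to appetite on both diets. The feeding was set for growth of 1.2 kg/d in HI and 0.5 kg/d in MOD calves, and all tissue was taken at 21 weeks of age.

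CD14 is a glycoprotein that binds bacterial lipopolysaccharide, is held to the cell surface by a lipid anchor and has no signalling domain of its own. It hands its ligands to TLR4, which signals as a complex with the protein MD-2, and also to TLR2, which senses bacterial lipopeptides as a dimer with TLR1 or TLR6. Both Toll-like receptors signal through MYD88 to NF-kB, a transcription factor that switches on genes for inflammatory cytokines. In fat these sensors are found on macrophages and other myeloid cells, among other cell types.

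Values are TMM-normalized CPM, the reads on a gene per 1000000 reads of a library whose size is corrected by a trimmed mean of M-values (TMM) factor. Between 11847883 and 19383275 reads were counted on genes per calf, which left 149 to 760 reads on CD14, 22 to 123 on TLR2 and 156 to 703 on TLR4. The values are not corrected for transcript length, so levels are compared between calves and not between genes. HI calf 2120, MOD calf 975 and MOD calf 911 stood apart on the first principal component of all genes, which held 36.7% of the variance. Their scores were 167, 88.8 and 49.5, against -25.5 to 9.55 in the other 27 calves, and results are given without them where that changes a call.

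With TMM scaling, TLR4 was expressed at a higher level in HI than in MOD calves, by 1.31-fold, while no difference was detected for CD14 or TLR2. TLR4 ranged in HI calves from 19.9 in calf 2528 to 38.1 in calf 3148, with a median of 29.9 CPM. It ranged in MOD calves from 13.6 in calf 911 to 31.6 in calf 975, with a median of 22.2 CPM. The diets overlapped, but 5 HI calves lay above every MOD calf, 5 MOD calves lay below every HI calf, and 12 of the 15 HI calves were above the MOD median. Of the 10 calves with the most TLR4, 8 were HI calves, and of the 10 with the least, 3 were. The mean was 29.2 ± 6.21 CPM in HI and 22.3 ± 5.41 CPM in MOD calves (SD, n = 15).

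On log2(value + 0.5), the difference in TLR4 between HI and MOD calves was 0.39 with a standard error of 0.12 (adjusted p = 0.0292, limma, Benjamini-Hochberg adjustment over 12738 genes). The 95% interval of the fold change ran from 1.10 to 1.56, and TLR4 was gene 1349 of 12738 in order of p. Its change lay at the 88.8th percentile of the signed log2 fold changes of all genes tested, whose median was -0.02. In bulk tissue, a change in the number of cells that carry a transcript and a change in transcript per cell cannot be told apart.

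CD14 differed between the diets by less than the spread between calves. Its lowest value in HI calves was 10.3 in calf 1360, the median 22.5 and the highest 35.7 CPM in calf 1048. In MOD calves the lowest was 10.7 in calf 1057, the median 21.1 and the highest 47.9 CPM in calf 975. The ranges overlapped almost fully, with 1 HI calf below and 1 MOD calf above all calves of the other diet, and 9 of the 15 HI calves above the MOD median. Means were 23.4 ± 6.51 CPM in HI and 22.1 ± 8.20 CPM in MOD calves (SD, n = 15). The log2 fold change was 0.09 with a standard error of 0.16 (adjusted p = 0.760, limma). Its 95% interval, 0.853-fold to 1.34-fold, lay inside 1.5-fold in either direction.

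TLR2 was the gene with the fewest reads, and its means on the 2 diets were nearly equal on the log2 scale. In HI calves it ranged from 1.91 in calf 1089 to 5.62 in calf 2120, with a median of 3.44 CPM. In MOD calves it ranged from 1.58 in calf 1057 to 7.75 in calf 975, with a median of 3.08 CPM. The MOD calves spread to both sides of the HI calves, with 2 of them below the lowest and 1 above the highest HI calf. Means were 3.45 ± 1.08 CPM in HI and 3.62 ± 1.72 CPM in MOD calves (SD, n = 15). The log2 fold change was 0.00078 with a standard error of 0.18 (adjusted p = 0.998, limma), and its 95% interval of 0.775-fold to 1.29-fold also lay inside 1.5-fold either way.

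**Figure D1:**
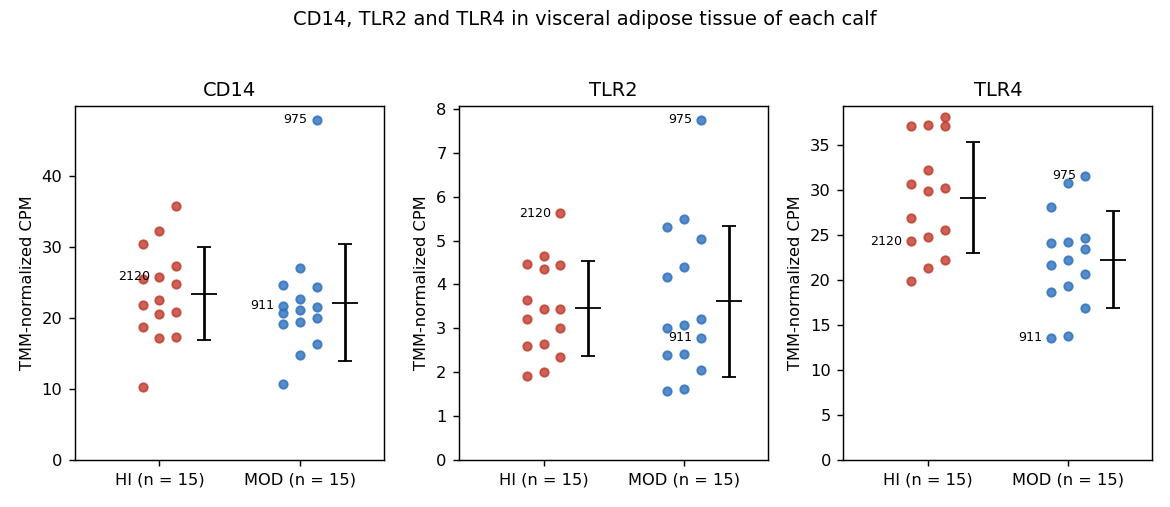
Expression of CD14, TLR2 and TLR4 in each of 15 HI (red) and 15 MOD (blue) calves, in TMM-normalized CPM on axes that start at 0. Points are calves, spread sideways for visibility, bars are the mean ± SD, and the 3 calves that stood apart over all genes are numbered. TLR4 sits higher in HI calves with overlap, and MOD calf 975 is the highest calf for CD14 and TLR2.

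By the rule of an adjusted p-value under 0.05 together with a fold change above 1.5, 0 of the 3 genes were called by limma, where 6.72% of all genes tested were. At an unadjusted p under 0.05 the count was 1 of 3, namely TLR4, where 27.5% of all genes passed. The exact test and the quasi-likelihood test of edgeR, DESeq2 and limma-voom on the recovered reads also called 0 of the 3, where they called 7.91%, 7.27%, 8.24% and 9.74% of all genes. With the adjusted p-value alone, 1 of the 3 genes passed, where 14.1% of all genes did and 7.32% did so with the higher level in HI calves.

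The TLR4 difference depended on how libraries were scaled. The TMM factors averaged 0.94 ± 0.10 in HI and 1.07 ± 0.10 in MOD calves (SD, n = 15), and with scaling by library size alone the log2 fold change of the median gene shifted by -0.18. TLR4 then averaged 27.8 ± 7.84 CPM in HI and 23.96 ± 6.37 CPM in MOD calves (SD, n = 15), and 10 of the 15 HI calves were above the MOD median. Its log2 fold change was then 0.21 (adjusted p = 0.317, limma), and 0 of the 3 genes had an adjusted p under 0.05, where 25.3% of all genes did. Relative to the median gene, the difference was 0.41 with TMM and 0.40 with library size alone. A change of scaling shifts all genes by nearly the same amount, so these 2 values had to be close. They do not show which scaling is right. CD14 and TLR2 stayed close to the median gene under both scalings, at 0.11 and 0.10 above it for CD14 and 0.02 and 0.03 for TLR2.

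The adjusted p of TLR4 was close to the threshold. Without HI calf 553, MOD calf 3622 or MOD calf 911, the log2 fold change was 0.37, 0.35 and 0.35 and the adjusted p (limma) just over 0.05, with 0.0536 the highest, and it was under 0.05 when any of the remaining 27 calves was left out. Without the 3 calves that stood apart, the log2 fold change was 0.40 (adjusted p = 0.0146, limma).

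**Figure D2:**
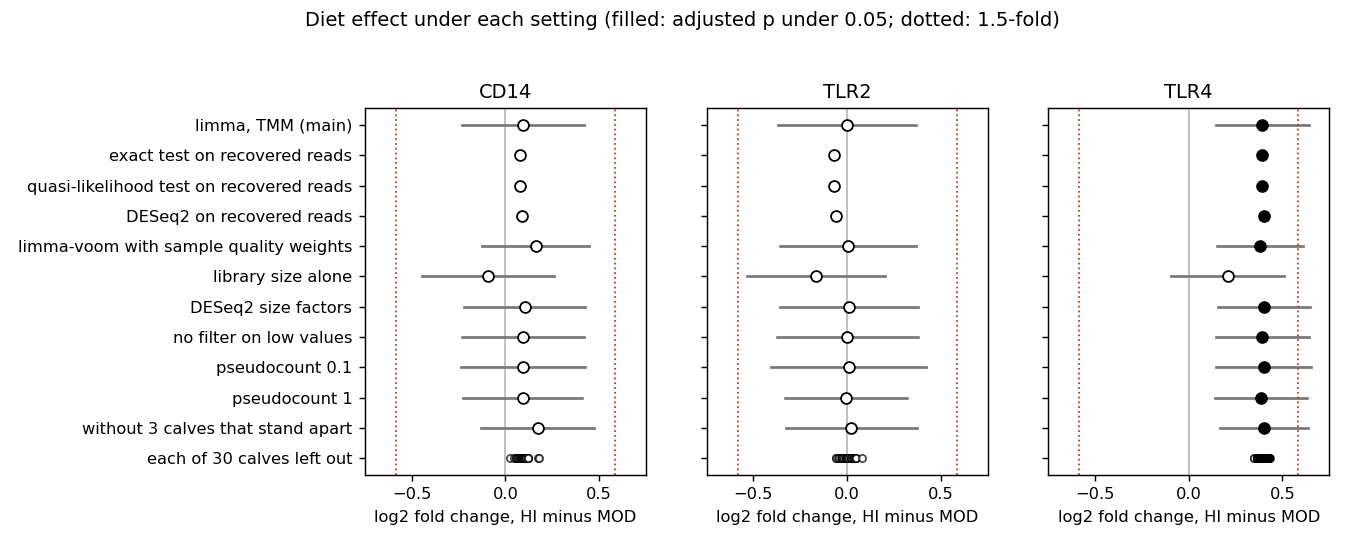
Log2 fold change (HI minus MOD) of each gene under the main fit, 10 other settings and 30 fits that each left out a calf. Circles are estimates, filled where the adjusted p is under 0.05, grey lines are 95% intervals where the test gives one, and dotted red lines mark 1.5-fold. The TLR4 estimates lie between 0.21 and 0.43, the lowest with library size alone. Those of CD14 lie between -0.09 and 0.18 and those of TLR2 between -0.17 and 0.08.

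Whether the 3 genes differed from each other in their response to diet was tested with the ratio of each pair within a calf, which hardly depends on the scaling of the library. The log2 ratio of TLR2 to TLR4 was -2.93 ± 0.49 in HI and -2.54 ± 0.39 in MOD calves (SD, n = 15), a difference of -0.39 with a standard error of 0.16. Only 2 of the 15 HI calves were above the MOD median of this ratio. The two-sided permutation test gave p = 0.0235, and 0.0706 after adjustment over the 3 pairs. The log2 ratio of CD14 to TLR4 was -0.34 ± 0.45 in HI and -0.04 ± 0.44 in MOD calves (SD, n = 15), and 5 of the 15 HI calves were above the MOD median. That difference, -0.30 with a standard error of 0.16, had a permutation p = 0.0748 (adjusted p = 0.112). For CD14 to TLR2 the difference was 0.09 with a standard error of 0.16 (permutation p = 0.561, adjusted p = 0.561). None of the 3 pairs passed the adjusted threshold, so a response of TLR4 that differs from those of CD14 and TLR2 was not established. Leaving out 1 of HI calves 2120 and 2528 and MOD calves 1057 and 2346 took the TLR2 to TLR4 difference past it, with adjusted p down to 0.0177. In the other 26 of 30 such fits it did not pass, with adjusted p up to 0.140 without HI calf 3148. Leaving out HI calf 2528 took CD14 to TLR4 past the threshold (adjusted p = 0.0377). In the other 29 fits that pair did not pass, with adjusted p up to 0.215 without HI calf 1360.

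**Figure D3:**
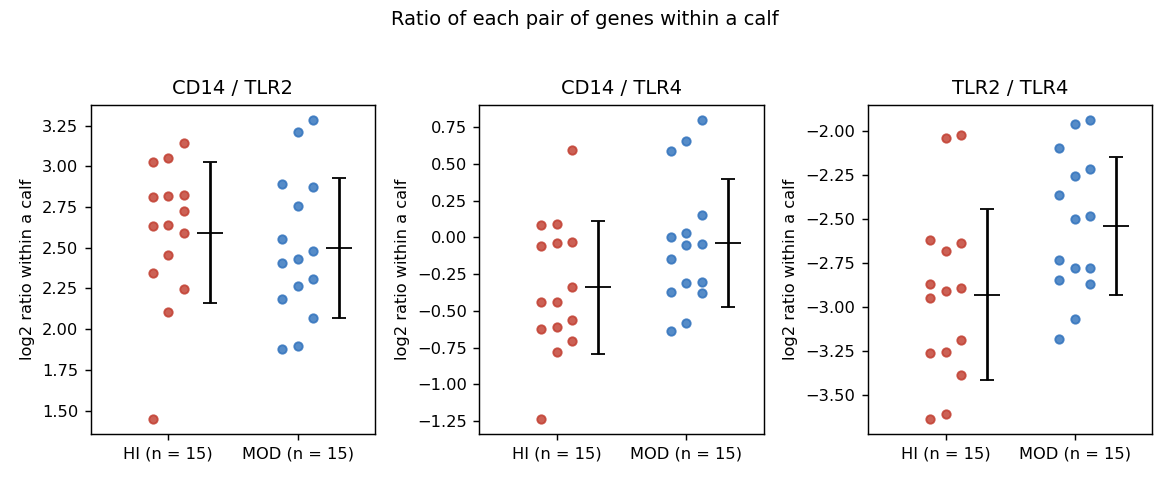
Log2 ratio of each pair of genes within a calf, for 15 HI (red) and 15 MOD (blue) calves, with bars for the mean ± SD. The ratio of TLR2 to TLR4 averages -2.93 in HI and -2.54 in MOD calves, and the diets overlap in all 3 panels. Ratios of different pairs are not comparable in level, since transcript length is not corrected for.

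The SD between calves of the same diet was 0.44 for CD14, 0.50 for TLR2 and 0.33 for TLR4 on the log2 scale, where the median over all genes tested was 0.44. For scale, counting of reads alone, with no noise from sampling or library preparation, would give an SD of 0.08, 0.18 and 0.07, or 3.13%, 12.5% and 4.87% of that variance. TLR4 was thus among the less variable genes, at the 28th percentile of this SD, with CD14 at the 51.4th and TLR2 at the 61.4th. The highest MOD calf had 4.92 times the TLR2 value of the lowest, and the highest HI calf 2.95 times. For TLR4 these ratios were 2.33 in MOD and 1.91 in HI calves.

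The 3 genes were then compared with each other from calf to calf, as deviations from the mean of the diet so that the diet difference does not enter. With all 30 calves r was highest for CD14 and TLR2, and differences between the 3 correlations were not tested. The pair had Pearson's r = 0.58 (permutation p = 0.00053, adjusted over 3 pairs 0.00159) and Spearman's rho = 0.59 (permutation p = 0.00068, adjusted 0.00204) over these calves. Without MOD calf 975 and HI calf 1360, the calves farthest from the median of CD14, r was 0.58 (permutation p = 0.00131). TLR2 and TLR4 had r = 0.50 (permutation p = 0.00789, adjusted 0.0118) and rho = 0.43 (permutation p = 0.02003, adjusted 0.03004). Without MOD calves 975 and 1057 this r was 0.38 (permutation p = 0.0513), and with library size alone in place of TMM it was 0.46 without them (permutation p = 0.0143). CD14 and TLR4 had r = 0.37 (permutation p = 0.0479, adjusted 0.0479) and rho = 0.37 (permutation p = 0.0459, adjusted 0.0459). Without MOD calf 975 and HI calf 1360, r was 0.23 (permutation p = 0.245), and with library size alone it was 0.47 without them (permutation p = 0.0139). With TMM, this relation no longer passed in 21 of the 30 fits without a single calf.

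MOD calf 975 had the highest CD14 and TLR2 of all 30 calves and the highest TLR4 of the MOD calves. MOD calf 1057 was at the other end, with the lowest TLR2 of all 30 calves and the lowest CD14 of the MOD calves. Its TLR4, 16.9 CPM, was 28th in order of 30. HI calf 1360 had the lowest CD14 of all, 10.3 CPM, yet its TLR2 of 3.44 CPM was the median of the HI calves. HI calf 2120 had the highest TLR2 of the HI calves with a CD14 of 25.8 and a TLR4 of 24.3 CPM. Without calves 2120, 975 and 911, r was 0.47 for CD14 and TLR2 (permutation p = 0.0108), 0.50 for TLR2 and TLR4 (permutation p = 0.00799) and 0.33 for CD14 and TLR4 (permutation p = 0.101). For CD14 and TLR4, rho was then 0.39 (permutation p = 0.0487, adjusted 0.0487).

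Within each diet, the relation of TLR2 to TLR4 was seen in MOD calves. There r was 0.75 (permutation p = 0.00133, adjusted over 6 relations 0.00798) and rho was 0.79 (permutation p = 0.00083, adjusted 0.00498) over 15 calves. Without calves 975 and 1057, r was 0.66 (permutation p = 0.0127). In HI calves r was 0.07 (permutation p = 0.797) and rho 0.04 (permutation p = 0.884). The difference between the diets in r, -0.68, had p = 0.0228 in a permutation test of the diet labels and 0.0685 after adjustment over the 3 pairs, so a difference between the diets was not established. That test was chosen after the correlations were seen. Without calves 2120, 975 and 911 the difference was -0.57 (permutation p = 0.0860, adjusted 0.258).

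CD14 and TLR2 had r = 0.68 (permutation p = 0.00458, adjusted 0.0137) and rho = 0.58 (permutation p = 0.0261, adjusted 0.0522) in MOD calves. Without calves 975 and 1057, r was 0.29 (permutation p = 0.342), so in MOD calves the relation did not hold without them. In HI calves r was 0.46 (permutation p = 0.0811, adjusted 0.145) and rho 0.66 (permutation p = 0.00913, adjusted 0.0274). Without calves 1360 and 1048, r was 0.64 (permutation p = 0.0190), and with library size alone it was 0.53 without them (permutation p = 0.0627). For CD14 and TLR4, r was 0.29 in HI (permutation p = 0.305) and 0.44 in MOD calves (permutation p = 0.0969), and without 2 calves in each it was 0.07 and 0.06. Without the 3 calves that stood apart, 2 calls for CD14 and TLR2 changed. In MOD calves r was then 0.52 and no longer passed (permutation p = 0.0656, adjusted 0.195). In HI calves rho was then 0.63 and narrowly no longer passed after adjustment (permutation p = 0.0184, adjusted 0.0553).

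**Figure D4:**
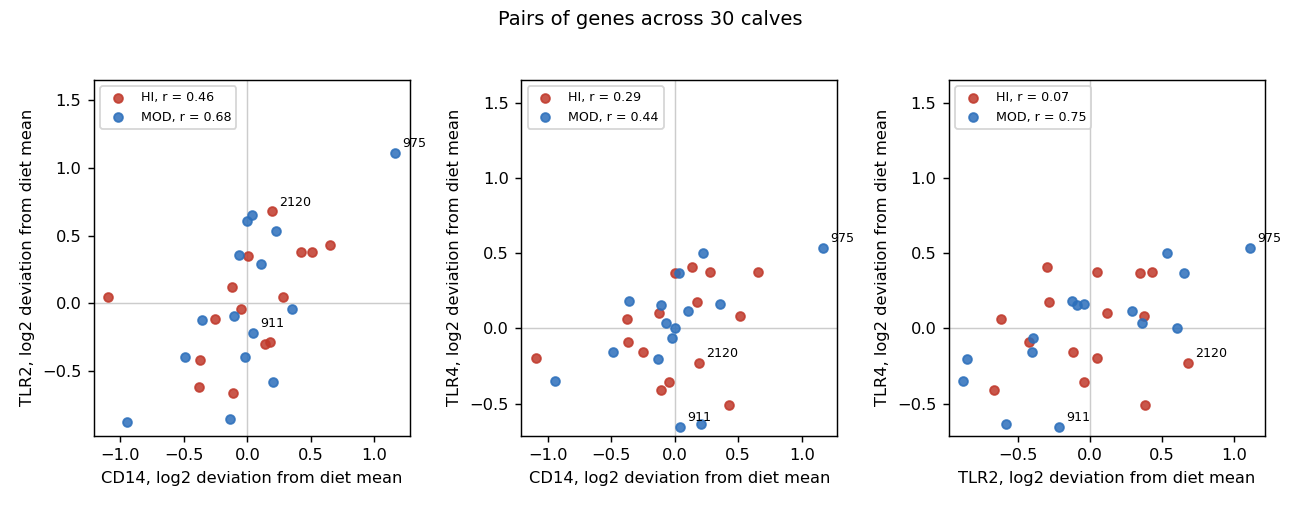
Deviations from the diet mean of log2(value + 0.5) for each pair of genes, with 15 HI calves in red, 15 MOD calves in blue and the 3 calves that stood apart numbered. CD14 and TLR2 have r = 0.46 in HI and 0.68 in MOD calves. TLR2 and TLR4 have r = 0.75 in MOD and 0.07 in HI calves, and the difference between the diets did not pass after adjustment.

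The labels give no batch, so depth and scaling were examined in its place. Over 30 calves, deviations of the 3 genes had r between -0.03 and 0.15 with the log2 number of reads counted, with permutation p of 0.455 or more. With the TMM factor, r was 0.11 for CD14, -0.12 for TLR2 and 0.34 for TLR4 (permutation p = 0.568, 0.528 and 0.0727, each 0.436 or more after adjustment over 6 relations). Spearman's rho of TLR4 with the TMM factor was 0.37 (permutation p = 0.0482, adjusted 0.289), and without HI calf 2120 and MOD calf 2537 its r was 0.31 (permutation p = 0.126). With library size alone in place of TMM, r was 0.60 for CD14 and TLR2, 0.52 for TLR2 and TLR4 and 0.52 for CD14 and TLR4 (adjusted permutation p of 0.00374 or less).

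As a description, each gene was set beside the 12737 other genes past the filter by the r of deviations over the same 30 calves, which share libraries and scaling. For CD14, r with TLR2 was number 233 in order and 1.82% of genes were higher, while 13.9% were higher than its r with TLR4. For TLR2, 1.34% of genes were higher than CD14 and 5.37% higher than TLR4. For TLR4, 1.24% of genes were higher than TLR2 and 4.87% higher than CD14. Without the 3 calves that stood apart, these shares were 5.32% and 15.2% for CD14, 3.32% and 2.14% for TLR2, and 3.45% and 14.7% for TLR4, so for TLR2 the order of CD14 and TLR4 turned round.

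The gene most like CD14 was ENSBTAG00000002885 (r = 0.83), the gene most like TLR2 was ENSBTAG00000021694 (r = 0.77) and the gene most like TLR4 was ENSBTAG00000015718 (r = 0.76). Without the 3 calves that stood apart these r were 0.78, 0.75 and 0.76. The 5 most similar genes reached at least 0.79 for CD14, 0.75 for TLR2 and 0.68 for TLR4. An r above 0.7 was found with 46 genes for CD14, 13 for TLR2 and 1 for TLR4. Of the 100 genes most like CD14 and the 100 most like TLR2, 25 were shared, which is 25% of each list, and 5 were shared by each of the other pairs of lists. Each list was 100 of 12737 genes, all lists came from the same libraries, and the overlaps were not tested.

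The diet differences of the genes most like the sensors are given beside those of all genes. Among the 100 most like CD14, 3 had an adjusted p-value under 0.05 (limma), each with the higher level in HI calves. The number was 8 of 100 for TLR2, also higher in HI calves, and 7 of 100 for TLR4, 4 with the higher and 3 with the lower level in HI calves. Over all genes tested, 14.1% passed, and 7.32% passed with the higher level in HI calves. The log2 fold change was above 0 in 84 of the 100 genes for CD14, 76 for TLR2 and 64 for TLR4, beside 47.2% of all genes. The median log2 fold change of these genes was 0.25 for CD14, 0.21 for TLR2 and 0.07 for TLR4, beside -0.02 over all genes tested. The genes of each list were picked by correlation over the same calves, so their diet differences are not independent and tend to share a sign. Neither the shares nor the medians were tested.

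**Figure D5:**
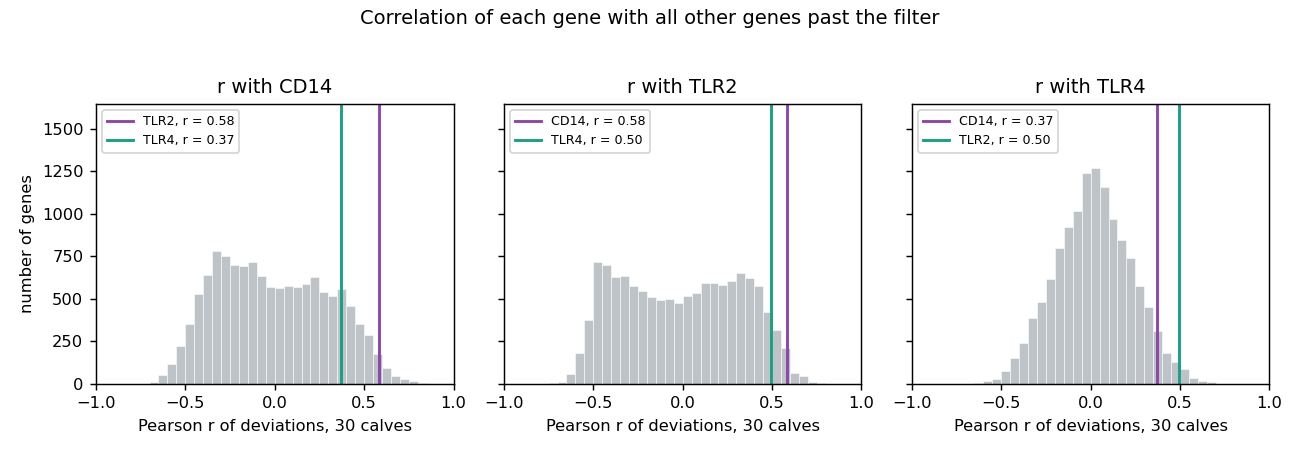
Number of genes (vertical axis, bins of 0.05) by Pearson's r of their deviations with CD14, TLR2 or TLR4 over 30 calves, for 12737 other genes in each panel. Coloured lines mark the other sensors, at r of 0.37 to 0.58. The line of TLR4 in the CD14 panel has 13.9% of genes above it. The values of r spread more widely for CD14 and TLR2 than for TLR4.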

How the data were processed

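The authors sequenced 1 library of visceral adipose RNA from each of 15 HI and 15 MOD calves. Adapters and low-quality bases were removed by Cutadapt, STAR was used for alignment to UMD3.1 and for gene counts, and edgeR for TMM normalization. The deposited values are a signal per gene, namely reads per 1000000 of the TMM-corrected library size. Which strand column of STAR was counted is not given in the sources used here. Whole reads were recovered from the worth of 1 read per library (100% of values above 0 within 0.01 of a read).

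Diets were compared with limma 3.58.1 (R 4.3.3, variance trend) on log2(value + 0.5), over 12738 genes whose value exceeded 1 in 15 or more libraries. On simulated counts for these genes limma recovered 196 of 200 changed genes with 14 false calls. Recovery of fold changes as small as those of CD14, TLR2 and TLR4 was not tested. Alternatives used the exact and quasi-likelihood tests of edgeR 4.0.16, DESeq2 1.42.0 and limma-voom on the recovered reads, and other scalings, pseudocounts, filters and calves. Ratios and correlations were tested with two-sided permutations (100000 resamples; 9999 with a calf left out), calves being permuted within diets for correlations. P-values measure the spread between calves, since each calf gave 1 library, and count intervals cover counting error only.

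The genes and lists were chosen with earlier results of these data known. Lists of Toll-like receptor pathway genes and of cell type markers were drawn up by symbol, but no table used here pairs symbols with these identifiers, so they, the check of the tissue by its markers and sequences of the genes were not analysed here. Named genes were the 3 members and, by identifier, the gene most like each. The rule allowed 5 for each, of which fewer are printed because they have no names.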

Additional observations from a re-analysis of the deposited data

How the results depend on the processing

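With library size alone the log2 fold change was 0.21 for TLR4 (adjusted p = 0.317), -0.092 for CD14 and -0.17 for TLR2, and 0 of these 3 genes had an adjusted p under 0.05, where 25.3% of all genes did. That scaling moved the median of all genes by -0.18, which the values of all 3 genes follow. The TLR2 value also changed sign with the exact test (-0.071), the quasi-likelihood test (-0.070), DESeq2 (-0.057) and a pseudocount of 1 (-0.0051), with adjusted p of 0.87 or more. It lay between -0.17 and 0.080 under all settings tried, and the cause was not tested. Over the other 9 settings TLR4 kept an adjusted p under 0.05, at 0.38 to 0.40. Without a fold change threshold 1 of the 3 genes was called in place of 0, where 14.1% of all genes were. With a pseudocount of 1 the TLR2 to TLR4 difference was -0.39 and passed (adjusted permutation p = 0.0409). With a pseudocount of 0.1 it was also -0.39 and did not pass (adjusted permutation p = 0.114). Without the 3 calves that stood apart r of CD14 and TLR4 was 0.33 and did not pass (adjusted permutation p = 0.101), while rho was 0.39 and narrowly passed (adjusted permutation p = 0.0487).

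With each of 30 calves left out, the log2 fold change was 0.03 to 0.18 for CD14, -0.062 to 0.080 for TLR2 (below 0 in 17 fits) and 0.35 to 0.43 for TLR4, and the number with an adjusted p under 0.05 was 0 to 1, and called also by fold 0 in every fit. The difference in diet effect was 0.05 to 0.17 for CD14 and TLR2, -0.37 to -0.24 for CD14 and TLR4 and -0.46 to -0.34 for TLR2 and TLR4. The r was 0.47 to 0.68, 0.26 to 0.46 and 0.42 to 0.57 for these pairs, and that of CD14 and TLR4 lost its adjusted p under 0.05 in 21 of 30 fits. No paired analysis was possible because the labels do not say which calves shared a block. The alternatives planned for pathway and marker lists were not run, since they need gene names.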
